A study of Mus musculus with 4 samples.

Results

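Genes of mitochondrial and peroxisomal fatty acid oxidation were followed in mouse liver over 2 diets and 2 injections. The set held 42 genes listed by function and not by a threshold on their values, with earlier results of these data known, in the carnitine shuttle, β-oxidation, ketone body metabolism and acyl-CoA hydrolysis. Every probe set whose annotation gave exactly 1 symbol, equal to that of a member, was taken, which gave 74 probe sets. All 42 genes had such a probe set, and all 42 were at 4 or more (log2), the level below which a signal was treated as too dim to measure, on each of the 4 arrays. They were 42 of the 8650 genes detected in the series, and 24 of them were assigned to the mitochondrial route, 16 to peroxisomes and 2 to the cytosol. The mitochondrial group includes Slc22a5, which lies in the plasma membrane and brings in the carnitine that the shuttle uses.

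The livers came from male C57BL/6J mice that were 8 to 12 weeks old when the diets began. The groups were a low-fat diet (10% of energy from fat) with PBS, the same diet with clodronate liposomes, a high-fat diet (45% of energy from fat) with PBS and the high-fat diet with clodronate liposomes. Diets lasted 20 weeks, palm oil took the place of lard in both, and injections into the peritoneal cavity were given 2 times in the last week. Clodronate liposomes kill the phagocytes that ingest them, among them the Kupffer cells, which are macrophages living in the liver sinusoids. The comparison arm received PBS and not empty liposomes, so the liposome, the drug and the loss of macrophages cannot be told apart. RNA of 8 mice per low-fat group and 10 mice per high-fat group was combined in equal amounts, and 1 array was run per group. Differences between 2 arrays therefore have no replicate check, and variation from mouse to mouse is unknown. The question of the study, as its title gives it, was whether Kupffer cells suppress the activity of PPARα and so favour fat storage in the liver.

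Fatty acids enter mitochondria as carnitine esters and are shortened there by repeated cycles of dehydrogenation, hydration, a second dehydrogenation and thiolysis. Peroxisomes shorten very long and branched chains and pass the products on, and the liver turns much of the acetyl-CoA formed into ketone bodies. Many of these genes are known targets of PPARα, a nuclear receptor that binds DNA with its partner RXR at a repeat of the half-site AGGTCA.

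The platform holds probes and no promoter data, so promoter windows are shown only as context for the member that passed the test, Pex11a, and for the neighbouring acyl-CoA thioesterase genes of chromosome 12, 2 of which, Acot3 and Acot4, were among the 3 members with the largest diet differences in PBS pools. The windows are the 250 bases before the annotated start, from RefSeq on GRCm38.p6, and capitals mark AGGTCA or CCAAT on either strand. Pex11a lies at chr7:79743132-79743381 on the minus strand, Acot1 at chr12:84009252-84009501 on the plus strand, Acot3 at chr12:84051894-84052143 on the plus strand and Acot4 at chr12:84038129-84038378 on the plus strand.
Pex11a: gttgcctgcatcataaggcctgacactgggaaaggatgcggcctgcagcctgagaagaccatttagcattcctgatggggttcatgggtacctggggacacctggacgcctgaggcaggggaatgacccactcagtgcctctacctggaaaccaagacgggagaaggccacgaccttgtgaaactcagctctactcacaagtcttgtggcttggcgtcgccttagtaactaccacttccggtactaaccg
Acot1: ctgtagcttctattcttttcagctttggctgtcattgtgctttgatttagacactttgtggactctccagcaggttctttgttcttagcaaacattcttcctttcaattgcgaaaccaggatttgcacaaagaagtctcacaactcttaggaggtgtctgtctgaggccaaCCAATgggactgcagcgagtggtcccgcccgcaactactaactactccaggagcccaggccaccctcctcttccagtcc
Acot3: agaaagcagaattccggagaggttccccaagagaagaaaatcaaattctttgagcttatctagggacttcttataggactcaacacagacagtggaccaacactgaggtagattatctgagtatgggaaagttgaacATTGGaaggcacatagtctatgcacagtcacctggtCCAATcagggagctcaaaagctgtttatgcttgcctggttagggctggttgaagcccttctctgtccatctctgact
Acot4: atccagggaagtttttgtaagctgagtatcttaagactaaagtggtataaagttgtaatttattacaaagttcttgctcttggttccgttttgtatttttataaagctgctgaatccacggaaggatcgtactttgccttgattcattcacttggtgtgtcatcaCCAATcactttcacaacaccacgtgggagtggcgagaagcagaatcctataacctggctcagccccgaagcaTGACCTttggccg
Windows were found for 37 of the 42 members. The full repeat AGGTCANAGGTCA, read on both strands, was in the windows of 0 of the 37 and in 0.0335% of all 32851 windows of this length. The half-site AGGTCA, which the full repeat contains, was in windows of 7 members (18.9%) and in 14% of all windows. CCAAT was in windows of 19 members (51.4%) and in 33.8% of all windows, and Pex11a had no match to any of these letters. The member shares count genes with a match in any window, and the shares of all windows count windows. A match is a description of these letters and not a binding site.

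The tissue and the depletion were checked first. Hepatocyte markers were at 4 or more on every array (10 of the 12 listed, the others having no probe set of their own), and their summed linear signal was between 134432 and 138160. Of 12 Kupffer cell markers, 12 and 10 were at 4 or more on the low-fat and high-fat PBS arrays, and 2 and 3 on the clodronate arrays. All 12 fell after clodronate in the limma test described below for the members, which took values below 4 as deposited. With PBS on low and high fat Timd4 was at 4.04 and 3.54 and Marco at 5.40 and 3.77, so these 2 falls rest partly on values too dim to measure. The count was 8 with a constant prior variance, and 11 after centring, after quantile normalization and without the filter. The summed linear signal of the 12 markers was 6232 and 5723 with PBS and 91.2 and 196 with clodronate. Adipocyte, muscle and lymphocyte markers were below 4 on every array. In whole liver, fewer cells of a type and less RNA per cell cannot be told apart. The median difference of all detected genes between the high-fat and low-fat clodronate arrays was -0.08, so directions of small differences were also read after each array was centred on its median.

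In PBS-injected mice, 39 of the 42 members were higher on high fat, with a median log2 difference of 0.25, against 0.00 over all detected genes, of which 49.5% were higher. All 24 members of the mitochondrial route were higher, by 0.04 to 0.78 with the carnitine importer Slc22a5 at the top and Acads next at 0.48, and so were 13 of the 16 peroxisomal members, whose range was -0.16 to 0.95. The medians of both compartments were alike, at 0.25 each. A difference of 1.2-fold or more upward was seen for 20 members (47.6%), against 12.8% of all detected genes, and 1.5-fold or more for 3 members, against 2.15%. Across all genes 48.9% were lower, and 1.47% were 1.5-fold or more lower. No member was 1.2-fold or more lower, where 10% of all genes were. These counts of members above 0 were the same, 39 of 42, after centring and after quantile normalization. Among genes as bright as most members (mean of 10 or more), 52.6% were higher and 7.35% were 1.2-fold or more higher.

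In clodronate-injected mice, 30 of the 42 members were higher on high fat, against 33.1% of all detected genes. The median was 0.11, against -0.08 over all genes, and it was 0.09 for mitochondrial and 0.16 for peroxisomal members. After centring, 36 members were higher and the medians were 0.19 and 0.26. The background moved too, with 4394 of the 8650 genes then higher and a median of 0.00. A 1.2-fold or larger difference upward was seen for 7 members, against 7.43% of all genes, and downward for 3 members, against 22.6%. By the 1.5-fold rule 0 members were higher or lower, against 1.69% and 4.79% of all genes, of which 64.9% were lower at any size. The comparisons with PBS and with clodronate share no array.

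**Figure D1:**
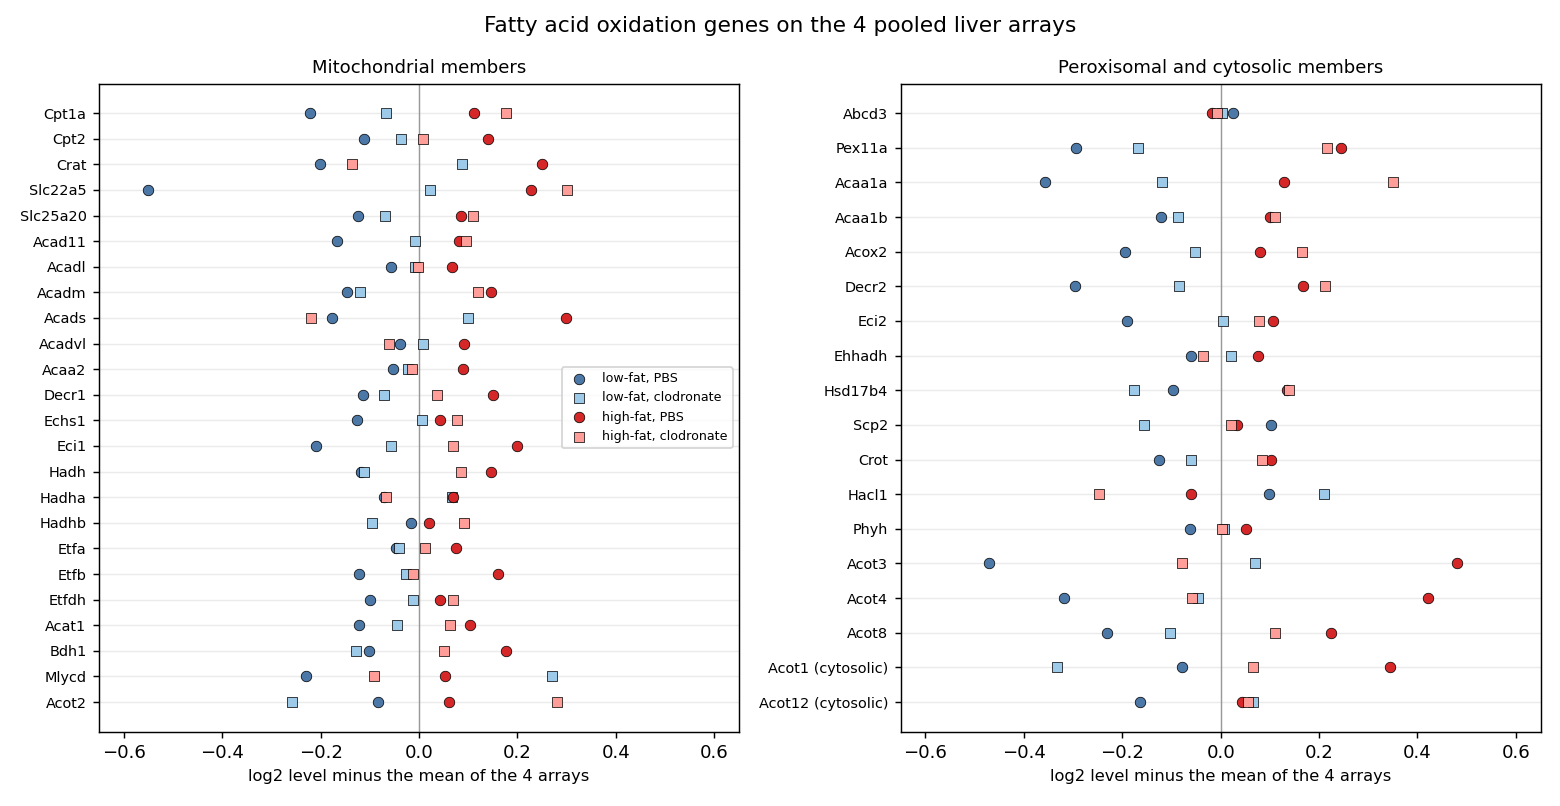
Each point is the log2 level of a member on 1 pooled array minus the mean of that member over the 4 arrays, with circles for PBS, squares for clodronate, blue for low-fat and red for high-fat pools. The low-fat PBS array is the leftmost point for 32 of the 42 members and the high-fat PBS array the rightmost for 24.

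Both high-fat arrays lay above both low-fat arrays for 29 of the 42 members, or 69%, against 16.4% of all detected genes. This was so for 19 of 24 mitochondrial and 9 of 16 peroxisomal members, and for Acot1. Both high-fat arrays lay below both low-fat arrays for 2 members, Hacl1 and Abcd3, against 29.5% of all genes. Under centring 34 members, and under quantile normalization 32, had both high-fat arrays above both low-fat arrays. The shares of all genes were then 23.7% and 22.3%. Among genes with a mean of 10 or more the share was 24.6% as deposited. The low-fat PBS array held the lowest of the 4 values for 32 members. It held the lowest value for 25.5% of all genes.

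Averaged over both injections, 1 member, Pex11a, passed the test, and it rose on high fat. The test was limma's moderated test in an additive model of diet and injection, with Benjamini-Hochberg adjustment over 8650 genes, of which 0.867% rose and 0.821% fell. At an unadjusted p under 0.05, 20 members were higher and 1 lower, against 5.56% and 7.63% of all genes. With a constant prior variance in place of one that depends on the mean, 0 members and 0 of all genes passed the limma test, and 6 members were higher and 0 lower at an unadjusted p under 0.05, against 4.18% and 6.15% of all genes. After centring 7 members rose and 0 fell (Cpt1a, Acadm, Hadh, Acaa1a, Acaa1b, Decr2 and Pex11a), where 1.24% of all genes rose and 0.671% fell. After quantile normalization 4 rose (Acadm, Hadh, Acaa1b and Pex11a) and 0 fell, where 0.855% and 0.647% of all genes did. With every probe set on its own 0 of 64 member probe sets rose or fell, where 0.188% and 0.23% of all probe sets did. With 1 array per group, no group has a spread of its own. The residual of the additive model is how far the diet difference with PBS departs from that with clodronate. It holds technical noise together with any true dependence of the diet difference on injection, and these cannot be told apart. The p-values rest on this residual, moderated by that of the other genes, and not on variation between mice.

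Pex11a encodes a peroxisomal membrane protein that helps peroxisomes to divide. Its log2 level was 9.71 in the low-fat PBS pool, 9.84 with low-fat and clodronate, 10.25 with high-fat and PBS and 10.22 with high-fat and clodronate. The high-fat pools were both above the low-fat pools, and the injections differed little. The averaged diet difference was 0.46 ± 0.11 (SD of the differences within each injection, n = 2; limma, Benjamini-Hochberg adjusted p = 0.0321). It was 1.45-fold higher with PBS and 1.30-fold higher with clodronate. A second probe set of Pex11a was higher by 0.54 and 0.31. The call was lost under 4 of the 7 alternative settings, with limma adjusted p from 0.0202 to 0.359 over all of them, while the difference stayed between 0.44 and 0.51.

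Abcd3, the transporter that carries branched and long-chain acyl-CoA into peroxisomes, stood between 12.87 and 12.92 on the 4 arrays. Its diet differences were -0.04 with PBS and -0.01 with clodronate.

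Among the peroxisomal β-oxidation enzymes, the thiolase Acaa1a had the largest averaged difference. It was at 8.15 and 8.39 in the low-fat pools with PBS and with clodronate, and at 8.64 and 8.86 in the high-fat pools. It was 1.40-fold and 1.38-fold higher on high fat, with a mean difference of 0.48 ± 0.01 (SD, n = 2; limma, Benjamini-Hochberg adjusted p = 0.0653). It was also the member with the largest difference upward after clodronate on high fat, 0.22, beside 0.24 on low fat. Its second detected probe set, which is dimmer, differed by 0.25 and 0.42 by diet with PBS and with clodronate, and after clodronate by 0.01 on low fat and 0.19 on high fat, so the size of its PBS diet difference and of its low-fat clodronate difference is uncertain. Its probe set carries the suffix that marks probes similar to other transcripts, and the near-identical Acaa1b could contribute. The 3 probe sets that the annotation gives to 2 members each (Acaa1a with Acaa1b, Acot1 with Acot2) were left out.

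Acaa1b, a thiolase of the same family, was at 13.65 and 13.68 in the low-fat and 13.87 and 13.88 in the high-fat pools. Decr2, which reduces double bonds of unsaturated chains in peroxisomes, was at 10.01 and 10.22 in the low-fat and 10.47 and 10.51 in the high-fat pools. Hsd17b4, the D-bifunctional protein, was at 11.84, 11.76, 12.07 and 12.08 in the order low-fat PBS, low-fat clodronate, high-fat PBS and high-fat clodronate. In all 3, the diet groups did not overlap.

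Acox2, the oxidase of branched chains and bile acid intermediates, was at 10.53, 10.67, 10.81 and 10.89 in the same order. Eci2, an enoyl-CoA isomerase, was at 10.84, 11.03, 11.13 and 11.10. Ehhadh, the L-bifunctional enzyme, was at 11.15, 11.23, 11.29 and 11.17, so that its high-fat clodronate value lay inside the range of the low-fat pools. Scp2, the thiolase and sterol carrier, was at 13.53, 13.27, 13.46 and 13.45 by its brightest probe set. Its 4 probe sets disagreed, with diet differences under clodronate from -0.02 to 0.55, and after clodronate on low fat from -0.70 to 0.01. No direction can therefore be given for Scp2.

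Crot, which makes medium-chain carnitine esters for export from peroxisomes, was at 12.23 and 12.30 in the low-fat and 12.46 and 12.44 in the high-fat pools. The enzymes of α-oxidation, which removes 1 carbon from phytanic acid, did not share this order. Phyh, the first of them, was at 13.63, 13.70, 13.74 and 13.69, with overlapping diets. Hacl1, the lyase of the pathway, was at 11.51 and 11.63 in the low-fat pools and lower, at 11.36 and 11.17, in the high-fat pools. It was 1.12-fold lower with PBS and 1.37-fold lower with clodronate, the largest difference downward of any member in either diet comparison, and it did not pass (mean difference -0.31 ± 0.21, SD, n = 2; limma, Benjamini-Hochberg adjusted p = 0.124).

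**Figure D2:**
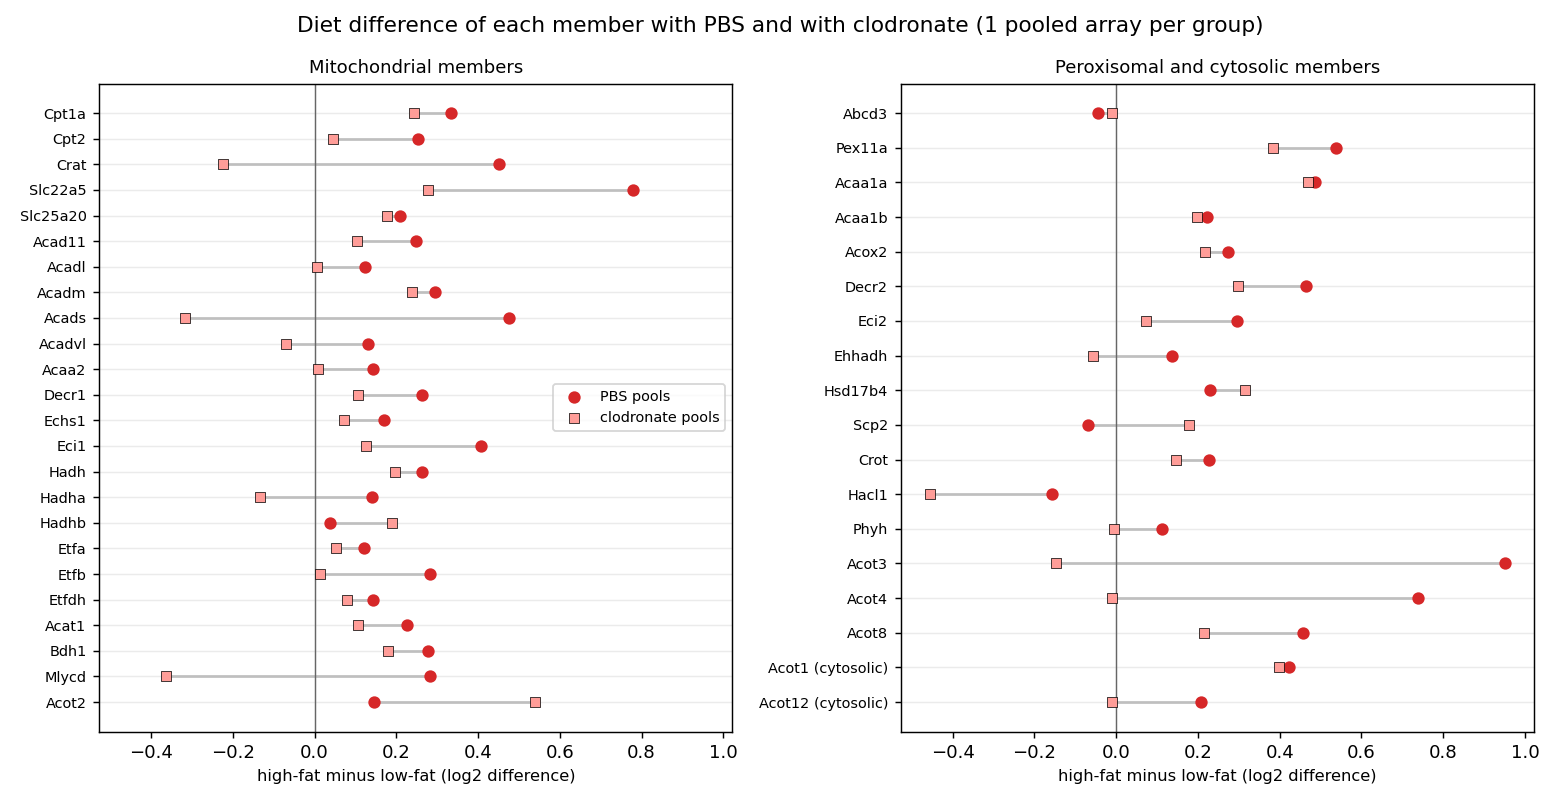
Each row is a member, with its high-fat minus low-fat log2 difference in the PBS pools (circle) and in the clodronate pools (square), joined by a line. Circles lie right of 0 for 39 of 42 members, and the longest lines belong to Acot3, Acads and Acot4.

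Acyl-CoA thioesterases release free fatty acids from CoA, and their diet differences in the PBS pools spanned 0.15 for Acot2 to 0.95 for Acot3, which was the largest of any member. Acot3, a peroxisomal form, was at 5.44 in the low-fat PBS pool, 5.98 with low-fat and clodronate, 6.39 with high-fat and PBS and 5.83 with high-fat and clodronate. It was 1.93-fold higher on high fat with PBS, but 1.11-fold lower with clodronate. Acot4, a neighbouring gene for another peroxisomal form, was at 5.35, 5.62, 6.09 and 5.61 in that order, 1.67-fold higher with PBS and 1.01-fold lower with clodronate.

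For both genes the high-fat PBS value was the highest and the low-fat PBS value the lowest, with the clodronate pools between. The mean diet differences were 0.40 ± 0.78 for Acot3 and 0.36 ± 0.53 for Acot4 (SD, n = 2), and neither passed (limma, Benjamini-Hochberg adjusted p = 0.564 and 0.545). After quantile normalization the diet differences with clodronate were 0.03 and 0.16, so their direction is not settled. The probe set of Acot3 carries the suffix for probes shared by several transcripts.

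Acot8, the third peroxisomal form, was at 7.04 and 7.17 in the low-fat and 7.50 and 7.38 in the high-fat pools. Acot1, the cytosolic long-chain form, was at 8.29, 8.03, 8.71 and 8.43. It was 1.34-fold and 1.32-fold higher on high fat with PBS and with clodronate, without passing (mean difference 0.41 ± 0.02, SD, n = 2; limma, Benjamini-Hochberg adjusted p = 0.122). Acot2, its mitochondrial neighbour, was dim, at 4.49, 4.32, 4.64 and 4.86, and was 1.45-fold higher on high fat with clodronate. Acot12, which hydrolyses acetyl-CoA in the cytosol, was at 9.79, 10.02, 10.00 and 10.01. Its low-fat PBS value stood below the other 3.

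In the carnitine shuttle, all 5 members were higher on high fat with PBS, with a median of 0.33, and 4 of 5 with clodronate. Slc22a5, the plasma membrane importer of carnitine, was at 5.45 in the low-fat PBS pool and at 6.03, 6.23 and 6.30 with low-fat and clodronate, high-fat and PBS, and high-fat and clodronate. The low-fat PBS pool thus stood apart from the other 3. It was 1.72-fold and 1.21-fold higher on high fat (mean difference 0.53 ± 0.35, SD, n = 2; limma, Benjamini-Hochberg adjusted p = 0.274). A dimmer probe set of Slc22a5 reached 4 only in the high-fat PBS pool, at 4.12. Its differences rest on values set to 4, so it gives no direction to compare.

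Cpt1a, the malonyl-CoA-sensitive entry enzyme, was at 10.51 and 10.66 in the low-fat and 10.84 and 10.90 in the high-fat pools. Its other probe sets were higher on high fat too, by 0.36 and 0.37 with PBS and by 0.55 and 0.68 with clodronate. Slc25a20, the translocase of the inner membrane, was at 10.30 and 10.36 in the low-fat and 10.51 and 10.54 in the high-fat pools. The diets did not overlap for either gene.

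Cpt2, which restores acyl-CoA in the matrix, was at 10.54, 10.61, 10.79 and 10.66 in the order low-fat PBS, low-fat clodronate, high-fat PBS and high-fat clodronate. Crat, carnitine acetyltransferase, was at 7.58, 7.87, 8.03 and 7.64. It was 1.37-fold higher on high fat with PBS and 1.17-fold lower with clodronate, and the lower value stayed below 0 under centring, at -0.12.

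The acyl-CoA dehydrogenases, which start each cycle, were all higher on high fat with PBS. Acadm, for medium chains, was at 11.39 and 11.42 in the low-fat and 11.68 and 11.65 in the high-fat pools. Acad11, for very long chains, was at 11.65 and 11.81 in the low-fat and 11.90 and 11.92 in the high-fat pools. Acadl, for long chains, was at 11.23, 11.27, 11.35 and 11.28. These 3 kept the diets apart, though for Acadl the clodronate pools were nearly equal.

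Acadvl, for very long chains, was at 11.29, 11.34, 11.42 and 11.27, and its diets overlapped. Acads, for short chains, was at 8.86, 9.13, 9.33 and 8.81. It was 1.39-fold higher on high fat with PBS but 1.25-fold lower with clodronate, and the latter was -0.22 after centring. The mean difference was 0.08 ± 0.56 (SD, n = 2; limma, Benjamini-Hochberg adjusted p = 0.904).

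All 7 enzymes of the later steps were higher on high fat with PBS, by 0.04 to 0.41, and 6 of 7 with clodronate, with medians of 0.17 and 0.11. Eci1, the enoyl-CoA isomerase of unsaturated chains, was at 10.17 and 10.32 in the low-fat and 10.57 and 10.44 in the high-fat pools. Hadh, the hydroxyacyl-CoA dehydrogenase of shorter chains, was at 12.66 in both low-fat pools and at 12.92 and 12.86 in the high-fat pools. Its diets were well apart, and its probe set is one with the suffix for similar sequences.

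Hadha, the α-subunit of the trifunctional protein, was at 10.84, 10.97, 10.98 and 10.84, and was the exception among the later steps. Hadhb, the β-subunit, was at 11.52, 11.45, 11.56 and 11.63. Its 3 detected probe sets disagreed in the clodronate pools, with diet differences from -0.24 to 0.19. Decr1, the reductase of unsaturated chains, was at 11.22, 11.26, 11.48 and 11.37.

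A dimmer Decr1 probe set had a PBS diet difference of 0.77, so the size of the Decr1 difference is uncertain. Echs1, the hydratase, was at 11.35, 11.49, 11.52 and 11.56. Acaa2, the thiolase, was at 12.57, 12.60, 12.71 and 12.61. For Echs1 and Acaa2 the low-fat clodronate value was close to the nearest high-fat value.

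The next members pass electrons from the dehydrogenases to the respiratory chain. Etfa and Etfb, the subunits of the electron transfer flavoprotein, were at 12.21, 12.21, 12.33 and 12.27, and at 10.91, 11.01, 11.19 and 11.02. Etfdh, its oxidoreductase, was at 10.58, 10.66, 10.72 and 10.74. Their diet differences were 0.12 to 0.28 with PBS and 0.01 to 0.08 with clodronate.

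Acat1, the acetoacetyl-CoA thiolase, was at 12.03 and 12.11 in the low-fat and 12.26 and 12.22 in the high-fat pools. Bdh1, which interconverts the ketone bodies, was at 11.16 and 11.13 in the low-fat and 11.44 and 11.31 in the high-fat pools. Both kept the diets apart. Mlycd, which removes malonyl-CoA, was at 7.80, 8.30, 8.08 and 7.94, with the low-fat clodronate pool highest. It was 1.22-fold higher on high fat with PBS and 1.29-fold lower with clodronate.

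**Figure D3:**
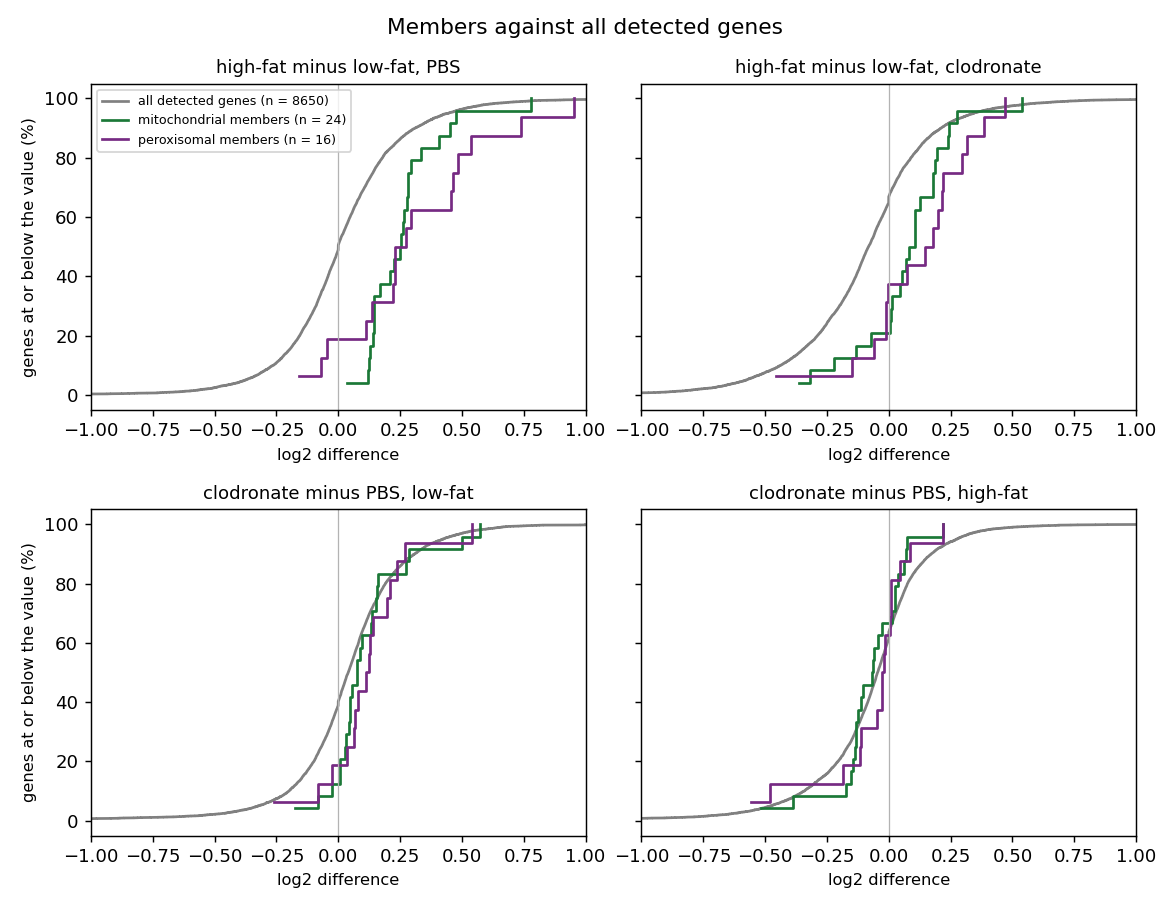
Cumulative share of genes (vertical axis, %) at or below each log2 difference, for all 8650 detected genes (grey), the 24 mitochondrial members (green) and the 16 peroxisomal members (purple), drawn between -1 and 1. In the diet comparisons the members' curves lie right of the grey curve over most of their range, and in the clodronate comparisons the curves lie closer together.

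Clodronate differences of the members were below 1.5-fold on both diets. On the low-fat diet 35 of 42 members were higher after clodronate, with a median of 0.08, where 59.7% of all genes were higher with a median of 0.04. This comparison and the diet comparison with PBS both subtract the low-fat PBS array, so they are not separate observations. After centring 30 members were still higher on low fat, with a median of 0.05, where 4398 of the 8650 genes were, with a median of 0.00. On the high-fat diet 27 of 42 were lower, with a median of -0.04, where 61.3% of all genes were lower with a median of -0.05. The high-fat PBS array is subtracted here and added in the diet comparison with PBS, so these are not separate observations either. After centring 24 members were higher on high fat, with a median of 0.02, where 4628 of the 8650 genes were, with a median of 0.01. No direction can therefore be given on high fat. By the 1.2-fold rule, 6 members were higher on low fat, against 13.1% of all genes, and 5 were lower on high fat, against 15%. In each comparison 0 members went 1.2-fold or more the other way, against 6.92% and 5.54%. At 1.5-fold or more, 0 members were higher or lower on either diet, where 1.75% and 1.63% of all genes were on low fat and 0.636% and 2.98% on high fat.

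In the averaged limma test with Benjamini-Hochberg adjustment 0 members rose or fell after clodronate, where 0.116% of all genes rose and 0.971% fell, and the lowest adjusted p of a member was 0.975. At an unadjusted p under 0.05, 0 members were higher and 1 was lower, Acot1, against 1.61% and 3.13% of all genes. Under each of the other limma settings 0 members passed as well; with the constant prior variance 0.451% of all genes fell. The shares of all genes that rose and fell were 0.104% and 0.809% after centring and 0.0693% and 0.728% after quantile normalization, and those of all probe sets on their own were 0.0139% and 0.439%. Acot1 was 1.19-fold and 1.21-fold lower after clodronate on low and high fat (mean difference -0.27 ± 0.02, SD, n = 2). It stayed lower under centring, at -0.29 and -0.21. Both clodronate arrays lay above both PBS arrays for 1 member, Acot12 (11.3% of all genes), and below them for 1, Scp2 (13.2%). For Scp2 this holds for its brightest probe set, and its probe sets disagreed, so no direction is given. After centring both counts were 0, where 1216 and 1035 of the 8650 genes were above and below.

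On the low-fat diet the largest differences upward after clodronate were those of Slc22a5, 1.49-fold, Acot3, 1.46-fold, and Mlycd, 1.41-fold. Crat was 1.22-fold and Acads and Acot4 were 1.21-fold higher. On the high-fat diet Acot3 was 1.47-fold, Acads 1.43-fold, Acot4 1.39-fold and Crat 1.31-fold lower. These 4 genes were thus among the highest after clodronate on 1 diet and the lowest on the other. For each of them the high-fat PBS value was the highest of the 4 arrays. Their high-fat clodronate and PBS diet differences share that value. Mlycd was 1.11-fold lower and Slc22a5 1.05-fold higher on high fat.

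**Figure D4:**
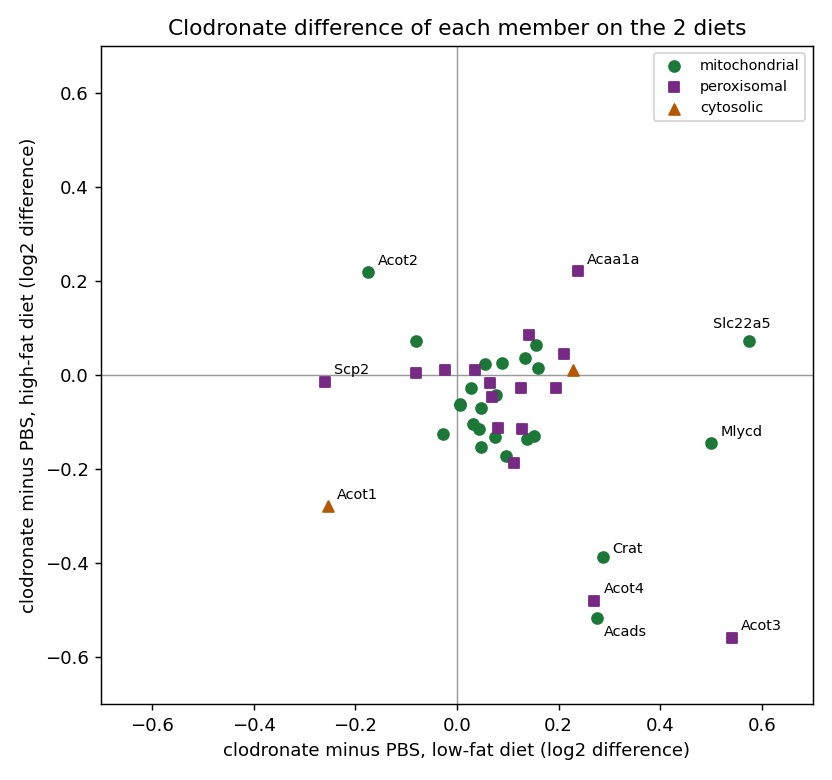
Each point is a member, with its clodronate minus PBS log2 difference on low fat (horizontal) and on high fat (vertical); colours and shapes give the compartment. Crat, Acads, Acot3 and Acot4 lie at the lower right, Acot1 is below 0 on both axes, and most members lie within 0.2 of 0 on both.

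The clodronate difference was lower on high fat than on low fat for 37 of the 42 members, with a median of -0.13, against 65.9% of all genes with a median of -0.09. Among genes with a mean of 10 or more the share was 69.4%. After centring the clodronate difference was lower on high fat for 24 members, and for 4144 of the 8650 genes. The medians of this difference between diets were then -0.02 for members and 0.01 over all genes. This difference also uses the low-fat PBS array, which held the lowest of the 4 values for 32 of the 42 members. The 4 arrays leave no residual error for the difference, and it was not tested.

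Probe sets of 1 gene were compared for the 15 members with several detected ones. The direction of the PBS diet difference was the same in all probe sets of 14 members, with Scp2 the exception, and that of the clodronate pools in 11. For clodronate it was the same for 8 members on low fat and 7 on high fat. Slc22a5 was counted as differing in all but the PBS diet difference, though its second probe set reached 4 only in the high-fat PBS pool.

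Other genes of the pathway, from a separate list, went in both directions. Of 27 detected genes of 37 listed, 19 were higher on high fat with PBS, with a median of 0.13, and 13 with clodronate, with a median of -0.01. Of all genes 49.5% and 33.1% were higher, with medians of 0.00 and -0.08. By limma with Benjamini-Hochberg adjustment 0 of the 27 rose and 1 fell, where 0.867% and 0.821% of all genes did. The gene that fell was Acacb, the carboxylase whose product malonyl-CoA blocks Cpt1a. It was at 9.0 and 9.06 in the low-fat and 7.56 and 7.91 in the high-fat pools (mean difference -1.29; adjusted p = 0.000715). Acad9, an acyl-CoA dehydrogenase that also assembles complex I, was at 7.13 and 7.37 in the low-fat and 7.63 and 7.82 in the high-fat pools, without passing. Slc16a1, a carrier of lactate and ketone bodies, was at 10.51 and 10.67 in the low-fat and 10.30 and 10.20 in the high-fat pools, also without passing. After clodronate 0 of the 27 rose or fell in that test, where 0.116% and 0.971% of all genes did. Oxct1, of the same list, was at 5.31 and 4.79 in the low-fat and 5.64 and 4.14 in the high-fat pools, with PBS first. It was 1.44-fold and 2.83-fold lower after clodronate on low and high fat, without passing, at values near 4. Listed genes without a probe set of 1 symbol are not analysed here.

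Other PPARα-related genes went in both directions by diet. Of 14 detected, 3 rose (Vnn1, Cyp4a14 and Cd36) and 1 fell (Pdk4) in limma with Benjamini-Hochberg adjustment. Of all genes 0.867% rose and 0.821% fell. At an unadjusted p under 0.05, 6 of the 14 were higher and 3 lower, against 5.56% and 7.63% of all genes. Vnn1, a pantetheinase, was at 9.88 and 10.04 in the low-fat and 11.0 and 11.15 in the high-fat pools. Cyp4a14, a fatty acid ω-hydroxylase, was at 10.80 and 10.71 in the low-fat and 11.93 and 11.46 in the high-fat pools. Cd36, a fatty acid translocase, was at 9.26 and 9.04 in the low-fat and 9.99 and 10.07 in the high-fat pools, so that all 3 kept the diets well apart. Pdk4, a kinase that inhibits pyruvate dehydrogenase, was at 6.67 and 6.29 in the low-fat and 5.42 and 5.62 in the high-fat pools (adjusted p = 0.0481 by limma), and its call was lost under each of the 7 alternative limma settings. Ppargc1b, a coactivator of nuclear receptors, was at 5.49 and 5.51 in the low-fat and 6.18 and 6.60 in the high-fat pools (mean difference 0.89; limma adjusted p = 0.0516). Fgf21, a hormone made by the liver, was at 5.14 and 4.59 in the low-fat pools and below 4 in both high-fat pools (limma adjusted p = 0.0518, on values not set to 4). Neither passed. Ppara itself, singled out after its values were seen, was at 11.06 and 11.15 in the low-fat and 11.38 and 11.47 in the high-fat pools. By limma with Benjamini-Hochberg adjustment its p was 0.0546 (mean difference 0.32), so it did not pass, and it passed under 2 of the 7 alternative limma settings, centring and quantile normalization. After clodronate Ppara was higher by 0.08 and 0.09 on low and high fat, while the differences of Cyp4a14 were -0.09 and -0.48. Of the 14 genes, 7 were higher and 7 lower after clodronate on low fat, and 9 higher and 4 lower on high fat. Of all genes 59.7% and 36.4% were higher. By limma with Benjamini-Hochberg adjustment 0 of the 14 rose or fell after clodronate, where 0.116% of all genes rose and 0.971% fell.

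Peroxins, which build peroxisomes, other than Pex11a were read beside it. Of 13 detected genes of 16 listed, with catalase included, 0 rose or fell by diet in limma with Benjamini-Hochberg adjustment. Of all genes 0.867% rose and 0.821% fell. At an unadjusted p under 0.05, 1 of the 13 was higher, against 5.56% of all genes. With PBS 11 of the 13 were higher on high fat, with a median of 0.17, and with clodronate 9, with a median of 0.01. Of all genes 49.5% and 33.1% were higher, with medians of 0.00 and -0.08. Pex16 and Pex11g had the largest averaged differences, both 0.27.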

How the data were processed

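RNA from livers was hybridised to 4 single-colour Affymetrix arrays, 1 per group, from 5 µg of total RNA per the labels' protocols. The deposited values are log2 expression made by the authors, and the submitters' processing notes name GCRMA 2.24.1 as a tool; the table held 45101 probe sets and was used as deposited. GCRMA models background from probe sequence, which bears most on dim probe sets. Probe sets were named by the platform annotation (34958 with 1 symbol, 932 with several, 9211 with none). Each gene was represented by its brightest probe set (18194 genes), and analysis kept the 8650 that reached 4 on any array. Values below 4 were set to 4 before differences between arrays were taken. The limma fits used the values without this step. The averaged effects were tested with limma 3.58.1 (R 4.3.3; additive model, eBayes with a mean-dependent prior, Benjamini-Hochberg at 0.05 over all 8650 genes), with 1 residual degree of freedom and a prior of 8.46. The script was tested on simulated data with known diet changes. It called 1% of changes of log2 0.3, 28% of 0.58 and 84.5% of 2-fold changes. With a constant prior these were 0.4%, 7.9% and 78%. Of the calls 7.11% and 7.21% were unchanged genes. A member without a call may thus still differ. For arrays, their number limits the precision. Members and lists were chosen with earlier results of these data known. Any member could be named, with folds and test values kept for called members and the 5 largest differences per direction in each pair of arrays. From the other lists, called genes and up to 4 with the largest averaged difference were eligible. Alternatives were scaling, floor, filter, probe set choice, prior and compartment. Python 3.11.15, numpy 2.4.6, pandas 2.3.3 and matplotlib 3.10.9 did the rest.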

Additional observations from a re-analysis of the deposited data

Results flagged for a closer look

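Crat, Acads, Acot3 and Acot4 had clodronate differences of 1.2-fold or more in opposite directions on the 2 diets, each from 1 pooled array per group. The log2 difference was 0.29 on low fat and -0.39 on high fat for Crat, and 0.28 and -0.52 for Acads. It was 0.54 and -0.56 for Acot3, and 0.27 and -0.48 for Acot4. These 4 were 9.52% of the members, against 3.97% of all detected genes (343 of 8650), of which 277 were higher on low fat and lower on high fat. Whether the clodronate difference depended on diet was not tested, since the 4 arrays leave no residual error for it. After centring, Crat was at 0.25 and -0.32, Acads at 0.24 and -0.45, Acot3 at 0.51 and -0.49 and Acot4 at 0.24 and -0.41. A second Acot4 probe set was below 4 on all 4 arrays and gave no value, and the other 3 genes had no second detected probe set.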

How the results depend on the processing

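Of 219 alternative values, 188 stayed within the limits set for them, 27 moved and 4 lost a call; a median was held to have moved when it shifted by more than the median residual SD of the additive model, 0.0924. Of the 219, 7 had the opposite sign to the reported value, all of them small medians of clodronate differences. On high fat the mitochondrial median went from -0.07 to 0.00 after centring, and the peroxisomal median from -0.02 to 0.05 after centring and 0.01 after quantile normalization. The other 4 were the mitochondrial median averaged over diets, -0.00192 as reported and between 0.000353 and 0.0147 after either scaling, with the mean of probe sets and per probe set. Centring moved the medians of the diet difference with clodronate from 0.09 to 0.19 for mitochondrial and from 0.16 to 0.26 for peroxisomal members. It moved that of all detected genes from -0.08 to 0.00. The count of members that rose with diet in limma, 1 in the report, was 7 after centring, 4 after quantile normalization, and 0 without the mean-dependent prior, without the filter, with every probe set tested on its own and with the mean of probe sets. Pex11a had an averaged difference of 0.46 without that prior, without the filter and per probe set, and 0.44 with the mean of probe sets, with limma adjusted p of 0.359, 0.176, 0.138 and 0.0794 (0.0202 to 0.359 over all alternatives).

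After clodronate on low fat, 14.3% of members were 1.2-fold or more higher, and 7.14% after centring and after quantile normalization. The share 1.2-fold lower was 0% and became 4.76% after either scaling, 2.38% with the mean of probe sets and 3.12% per probe set. The 1.5-fold shares, 0% higher and 0% lower, were 1.56% each per probe set. On the high-fat diet the share of members 1.2-fold higher after clodronate rose from 0% to 4.76% after centring and 2.38% after quantile normalization. That 1.2-fold lower was 11.9% and 7.81% per probe set. As deposited, 5.54% of all genes were higher and 15% lower by this rule. For diet with PBS the share of members 1.2-fold lower was 0%, and 1.56% per probe set, where 10% of all genes were lower as deposited. For diet with clodronate the share of members 1.2-fold higher was 16.7% and 40.5% after centring. That 1.2-fold lower was 7.14%, 2.38% after centring and 4.69% per probe set. That 1.5-fold higher was 0%, 2.38% after either scaling and 1.56% per probe set. Of all genes 7.43%, 22.6% and 1.69% passed these rules as deposited, and their shares under the alternatives are not given. Centring moved all genes too, from 2863 to 4394 of 8650 above 0, so the change to 40.5% is not one of the members alone.

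Members whose clodronate difference was lower on high fat numbered 37, 24 after centring and 29 after quantile normalization, settings chosen after seeing the data. Of all genes 5701 of 8650, 4144 of 8650 and 4173 of 8658 were lower in the same settings. With 1 array per group there were no replicate numbers to block on, beyond the additive model of diet and injection, and no array could be left out of that fit. All members were at 4 or more on every array, so the floor of 4 changed no member's value.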
